A study of Homo sapiens with 15 samples.

Results

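AP-1 is a dimeric transcription factor, and the transcripts of 9 of its subunits were measured in the established cell line NCI-H1975, grown from a human lung adenocarcinoma with a mutated EGFR. The subunits were chosen by gene symbol from a table of 61248 loci, and all 9 (FOS, FOSB, FOSL1, FOSL2, JUN, JUNB, JUND, ATF3 and BATF3) were found there once each. Messenger RNA was sequenced in 15 libraries, 3 from each of 5 groups of this line: control cells, cells given almonertinib (a drug that blocks the kinase of mutated EGFR), cells given EGF (the ligand of EGFR), cells given siNC (a negative-control siRNA) and cells given siEGFR (an siRNA against EGFR). The labels state no dose, time, serum condition or transfection reagent, and they do not say whether the control cells were mock-treated. They also do not say whether replicates are separate cultures, so a p-value here reflects the spread among libraries alone, and that spread may be technical.

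AP-1 binds DNA as a pair of basic leucine zipper proteins. Members of the FOS family (FOS, FOSB, FOSL1 and FOSL2) need a JUN family partner, whereas JUN, JUNB and JUND can also pair with one another. ATF3 and BATF3 are smaller relatives that join JUN proteins and often act as repressors. Growth factor receptors act on this family through ERK, which drives early transcription of FOS through serum response factor and its cofactors and then stabilises the FOS and FOSL1 proteins. FOSL1 is a later and longer-lived product of the same signal and is prominent in carcinoma lines with an active RAS pathway.

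Levels are in FPKM, fragments scaled to gene length and library size, so that they can be compared between genes. Changes are given as log2 values ± SE, fitted with limma to log2(FPKM + 1), with Benjamini-Hochberg adjusted p over 14999 tested loci, and rose, fell or changed is said only where the adjusted p was under 0.05. The added 1 shrinks the change of genes near 1 FPKM. Of the 9 subunits, 7 reached 1 FPKM in at least 3 libraries and were tested, and FOSB and BATF3 did not. Read totals were 18009903 to 34908302 per library. EGFR, the target of the siRNA, was at 49.4, 49.4 and 49.8 FPKM in siNC and at 29.9, 28.6 and 28.9 FPKM in siEGFR, so that 58.8% of the transcript was left (-0.75 ± 0.11, adjusted p = 0.00165). EGFR in siNC was itself at 203% of control (1.00 ± 0.11, adjusted p = 4.9e-06). Its mean was 24.4 ± 3.17 FPKM in control and 29.1 ± 0.666 FPKM in siEGFR (SD, n = 3). The siEGFR cells were thus low in EGFR transcript relative to siNC but not relative to control, a comparison that was not tested. With almonertinib EGFR fell to 16.7 ± 2.18 FPKM, 68.5% of control (-0.52 ± 0.11, adjusted p = 0.00521). Control 1, almonertinib 3 and EGF 2 stood apart from the other libraries of their groups in pairwise tests of read counts (chi-square per degree of freedom of 17.9 to 38.9 for control 1, against 6.66 between control 2 and 3). The median SD within a group was 0.146 for control and 0.051 for siEGFR in log2 units. All 6 epithelial markers were present, with a summed level of 923 to 1140 FPKM over the libraries, while the leukocyte genes PTPRC, CD3E, CD68 and MS4A1 stayed below 0.1 FPKM in each library. CD14, the leukocyte marker that was present, made that list's sum 30.2 to 41.0 FPKM without siRNA and 3.08 to 7.28 FPKM with siRNA. The 4 fibroblast markers summed to 337 to 352 FPKM in control, 358 to 383 FPKM with almonertinib and 193 to 214 FPKM with EGF. Their sum was 138 to 146 FPKM in siNC and 194 to 196 FPKM in siEGFR, with DCN below 0.1 FPKM throughout. The 3 endothelial markers summed to 0.339 to 3.5 FPKM. The 4 lung epithelium markers summed to 6.91 to 7.48 FPKM in control, 7.5 to 7.99 FPKM with almonertinib and 4.12 to 4.57 FPKM with EGF. In siNC they summed to 19.0 to 20.7 FPKM and in siEGFR to 13.4 to 14.0 FPKM. The part of these differences in the results was not tested.

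Promoter sequences of 5 subunits with a called change are shown so that their motifs for AP-1 and the related CREB and ATF factors can be compared. Sequences of 7 of the 9 subunits matched the RefSeq promoter table (GRCh38.p14), and FOSL1 and BATF3 did not. The 250 bases before the start are printed 5′ to 3′ on the gene's strand. Capitals mark TGACATCA, TGACGTCA and the core TGACG, each searched on both strands, and the core also lies inside TGACGTCA.
FOS, chr14:75278578-75278827, plus strand: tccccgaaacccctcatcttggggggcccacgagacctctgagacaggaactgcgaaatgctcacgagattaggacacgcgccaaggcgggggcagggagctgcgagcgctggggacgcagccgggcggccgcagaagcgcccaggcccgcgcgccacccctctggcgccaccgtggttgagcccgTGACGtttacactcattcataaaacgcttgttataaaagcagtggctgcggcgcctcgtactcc
FOSL2, chr2:28392608-28392857, plus strand: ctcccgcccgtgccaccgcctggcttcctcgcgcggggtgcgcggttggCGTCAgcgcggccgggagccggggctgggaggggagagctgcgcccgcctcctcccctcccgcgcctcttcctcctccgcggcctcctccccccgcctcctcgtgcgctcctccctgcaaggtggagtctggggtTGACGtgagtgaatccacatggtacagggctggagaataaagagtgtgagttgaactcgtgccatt
JUN, chr1:58784048-58784297, minus strand: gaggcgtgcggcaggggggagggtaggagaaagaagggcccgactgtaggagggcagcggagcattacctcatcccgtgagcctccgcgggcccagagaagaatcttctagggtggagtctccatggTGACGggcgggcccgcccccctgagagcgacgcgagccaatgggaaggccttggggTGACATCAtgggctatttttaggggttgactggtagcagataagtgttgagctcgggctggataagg
JUNB, chr19:12791236-12791485, plus strand: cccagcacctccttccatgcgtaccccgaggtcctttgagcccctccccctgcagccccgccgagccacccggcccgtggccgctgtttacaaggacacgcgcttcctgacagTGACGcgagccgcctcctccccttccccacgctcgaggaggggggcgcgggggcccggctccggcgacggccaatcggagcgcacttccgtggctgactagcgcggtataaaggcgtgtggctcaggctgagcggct
JUND, chr19:18281623-18281872, minus strand: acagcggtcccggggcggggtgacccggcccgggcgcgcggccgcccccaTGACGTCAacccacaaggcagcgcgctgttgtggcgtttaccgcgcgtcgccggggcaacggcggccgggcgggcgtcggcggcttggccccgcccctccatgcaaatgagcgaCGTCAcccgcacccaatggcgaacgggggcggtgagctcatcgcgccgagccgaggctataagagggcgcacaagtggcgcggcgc
Positions give the first base of a match, negative before the start. JUN held TGACATCA at position -67, and 2.61% of all 35116 promoter windows of 300 bases hold this motif. JUND held TGACGTCA at position -200, found in 1.85% of windows. FOS, FOSB, JUN and JUNB each held 1 match to the core TGACG, FOSL2 held 2 and JUND held 3, against 24.6% of windows with at least 1. The JUND matches at -200 and -197 are the 2 strands of its 1 TGACGTCA, so JUND has 2 separate stretches, as FOSL2 does. The AP-1 motif was searched in a loose form, TGANTCA with any base as N. It was present in FOSL2 alone of these genes, at position 5, and in 7.71% of all windows. ATF3 has 2 starts in the table, and the first held TGACATCA at position -123. A CArG box, the site of serum response factor, was not among the letters of the windows of these 7 subunits. These windows reach only 250 bases before the start, so sites further upstream were not searched. Of all 35116 windows 1.29% hold a CArG box. These matches describe letters, and binding was not measured.

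JUNB and JUND were the most abundant subunit transcripts in control cells, and FOSB was close to absent. Control means were 75.4 ± 2.74 FPKM for JUNB and 59.7 ± 12.8 FPKM for JUND (SD, n = 3). FOSL2 followed at 19.5 ± 1.62 FPKM, JUN at 10.4 ± 0.0729 FPKM and FOSL1 at 6.54 ± 0.961 FPKM. FOS was at 2.67 ± 0.287 FPKM, ATF3 at 1.03 ± 0.125 FPKM, BATF3 at 0.674 ± 0.178 FPKM and FOSB at 0.0767 ± 0.015 FPKM. The order changed with treatment, since FOSL1 passed FOSL2 with EGF and in both siRNA groups. In siEGFR cells FOSL1 was the most abundant of the 9 at 79.7 ± 2.4 FPKM, above JUNB at 53.0 ± 2.35 FPKM.

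**Figure D1:**
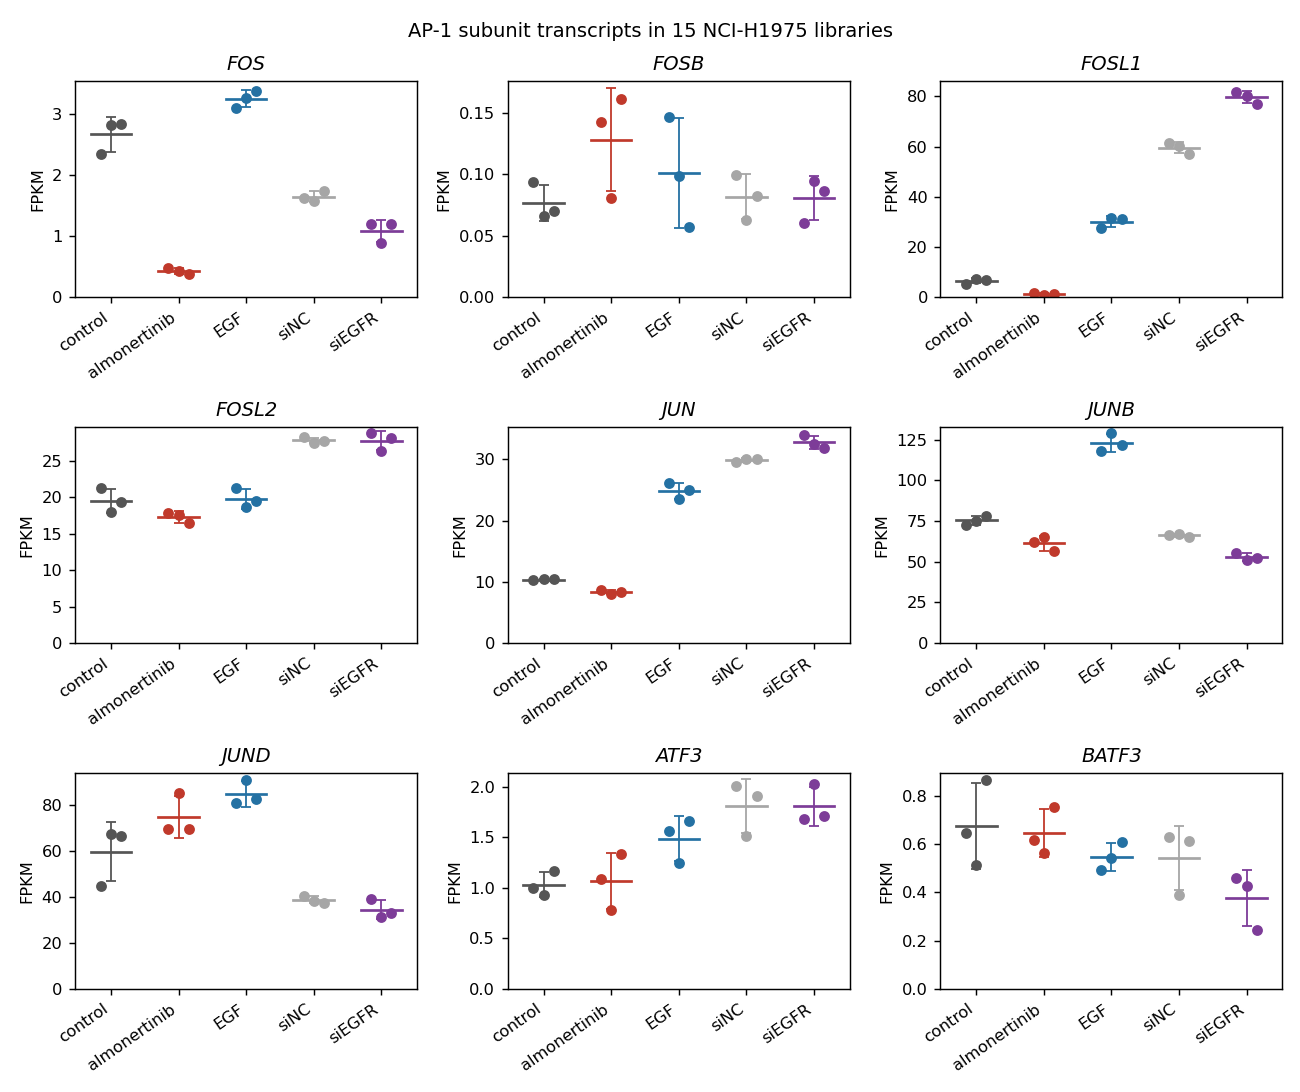
FPKM of each AP-1 subunit by group, with 1 point per library, a line at the group mean and bars of 1 SD (n = 3); each panel has its own linear axis from 0. FOSL1 and JUN step up from almonertinib to siEGFR without overlap between neighbouring groups, whereas FOS is lowest with almonertinib and highest with EGF.

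FOSL1 (ENSG00000175592), which encodes FRA-1, had the widest range. It was at 5.45, 7.27 and 6.89 FPKM in control, at 1.60, 0.978 and 1.42 FPKM with almonertinib and at 27.7, 31.5 and 31.2 FPKM with EGF. In siNC it was at 61.6, 60.1 and 57.2 FPKM and in siEGFR at 81.8, 80.2 and 77.1 FPKM. From lowest to highest the groups ran almonertinib, control, EGF, siNC, siEGFR, and no neighbours overlapped. FOSL1 fell with almonertinib to 20.4% of control (-1.69 ± 0.10, adjusted p = 5.26e-07) and rose with EGF to 461% (2.05 ± 0.10, adjusted p = 7.67e-09). These values rest on 41 to 61 reads per almonertinib library and 1282 to 1845 reads per EGF library. In a voom fit of the recovered reads, which adds no 1, the drug's change was -2.31 ± 0.18.

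The siRNA groups stood far above the others in FOSL1. In siNC its level was 912% of control (3.02 ± 0.10, adjusted p = 7.49e-11). The labels do not say how control and siNC cells were handled relative to each other, so the siRNA, its delivery and other differences in handling cannot be told apart in any value of siNC against control. After knockdown of EGFR it was 1.34-fold higher than in siNC, and every siEGFR library lay above every siNC library (0.41 ± 0.10, adjusted p = 0.0383). That call was lost under 12 of 17 alternatives, with adjusted p from 0.00085 to 0.141 and a change of 0.38 to 0.44. Leaving out any 1 of the 6 siRNA libraries was enough to lose it, with adjusted p of 0.0925, 0.106 and 0.141 without siNC 1, 2 and 3 and of 0.123, 0.122 and 0.0923 without siEGFR 1, 2 and 3. The drug and the knockdown effect on FOSL1 differed by -2.11 ± 0.15 (adjusted p = 3.61e-06), with separate controls for each effect, and this held in all 23 alternatives run for it (-2.73 to -1.99).

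FOS (ENSG00000170345), the immediate early subunit, followed another order. It was at 2.34, 2.82 and 2.84 FPKM in control, at 0.483, 0.424 and 0.374 FPKM with almonertinib and at 3.10, 3.26 and 3.38 FPKM with EGF. It was at 1.63, 1.57 and 1.74 FPKM in siNC and at 1.19, 0.883 and 1.19 FPKM in siEGFR. The order was almonertinib, siEGFR, siNC, control, EGF, and neighbours did not overlap. FOS fell with almonertinib to 16.0% of control (-1.36 ± 0.08, adjusted p = 1.88e-07), from 157 to 171 reads per library to 24 to 31. In the voom fit the change was -2.62 ± 0.17. It fell in siNC to 61.7% of control (-0.47 ± 0.08, adjusted p = 0.000117), in the opposite direction to FOSL1.

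The EGF and knockdown effects on FOS were smaller. With EGF it was at 122% of control (0.22 ± 0.08, adjusted p = 0.0314), a call lost under 9 of 17 alternatives (adjusted p 0.027 to 0.118), among them the fits without control 1 (0.15, adjusted p = 0.118), without EGF 2 (adjusted p = 0.0687) and without EGF 3 (adjusted p = 0.102). After knockdown FOS was at 66.0% of siNC (-0.35 ± 0.08, adjusted p = 0.0173), so that FOS was lower and FOSL1 higher in the same libraries. This call was lost without siNC 1 (adjusted p = 0.0632), without siNC 3 (adjusted p = 0.0808) and without siEGFR 2 (adjusted p = 0.0898), and at a threshold of 0.01. The drug effect exceeded the knockdown effect by -1.01 ± 0.11 (adjusted p = 9.98e-05).

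FOSL2 (ENSG00000075426), which encodes FRA-2, moved little among the groups without siRNA. It was at 21.2, 18.0 and 19.3 FPKM in control, at 17.9, 17.6 and 16.4 FPKM with almonertinib and at 21.3, 18.6 and 19.5 FPKM with EGF. Neither the drug (-0.16 ± 0.07, adjusted p = 0.0773) nor EGF (0.02 ± 0.07, adjusted p = 0.817) passed the threshold. The almonertinib libraries lay just below the control libraries, and the drug value passed in 3 of 17 alternatives (TPM scaling, -0.26, adjusted p = 0.0321; replicate block, adjusted p = 0.0261; without control 2, adjusted p = 0.0277). In siNC it was at 28.2, 27.5 and 27.7 FPKM, 142% of control (0.49 ± 0.07, adjusted p = 2.18e-05). In siEGFR it was at 28.8, 26.3 and 28.1 FPKM, which overlaps with siNC. FOSB (ENSG00000125740) had 7 to 20 reads per library, and its group means of 0.0767 to 0.128 FPKM overlapped throughout. The 25 reads summed over the 3 control libraries have an exact 95% Poisson interval of 16.2 to 36.9, and the 44 reads with almonertinib one of 32 to 59.1, both covering counting error only. The ratio of the means was 1.67, the libraries overlapped and the adjusted p was 0.357 in a fit without the filter, so a difference of this size could not be told from the spread at this depth. FOSB overlaps ERCC1 on the other strand, and FOSL2 overlaps FLJ31356 on the other strand and AC104695.3 on its own in GENCODE v29. Whether counting used strand is not given in the sources used here, so reads of such pairs cannot be told apart.

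The make-up of the FOS family differed between groups, as read from shares that do not depend on the scaling of a library. FOSL2 made up 67.7% ± 4.66 of the summed FPKM of the 4 FOS family genes in control and 90.2% ± 1.78 with almonertinib (SD, n = 3). FOSL1 made up 22.7% ± 3.64 in control, 6.95% ± 1.57 with almonertinib and 56.5% ± 3.12 with EGF. Its share was 66.9% ± 0.785 in siNC and 73.4% ± 1.13 in siEGFR, and no group overlapped with another. The share of FOS was 9.27% ± 1.09 in control, 2.22% ± 0.179 with almonertinib, 6.10% ± 0.152 with EGF, 1.85% ± 0.133 in siNC and 0.999% ± 0.156 in siEGFR. The summed level was 28.8 ± 0.533 FPKM in control, 19.2 ± 0.917 FPKM with almonertinib, 53.3 ± 0.967 FPKM with EGF, 89.1 ± 2.35 FPKM in siNC and 109 ± 2.83 FPKM in siEGFR. The ratio of FOSL1 to FOS was 2.44 ± 0.123 in control and 3.14 ± 0.762 with almonertinib, where the libraries overlap. It was 9.26 ± 0.377 with EGF, 36.3 ± 2.92 in siNC and 75.0 ± 13.9 in siEGFR. These shares and ratios were not tested, and they describe transcripts, not proteins.

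**Figure D2:**
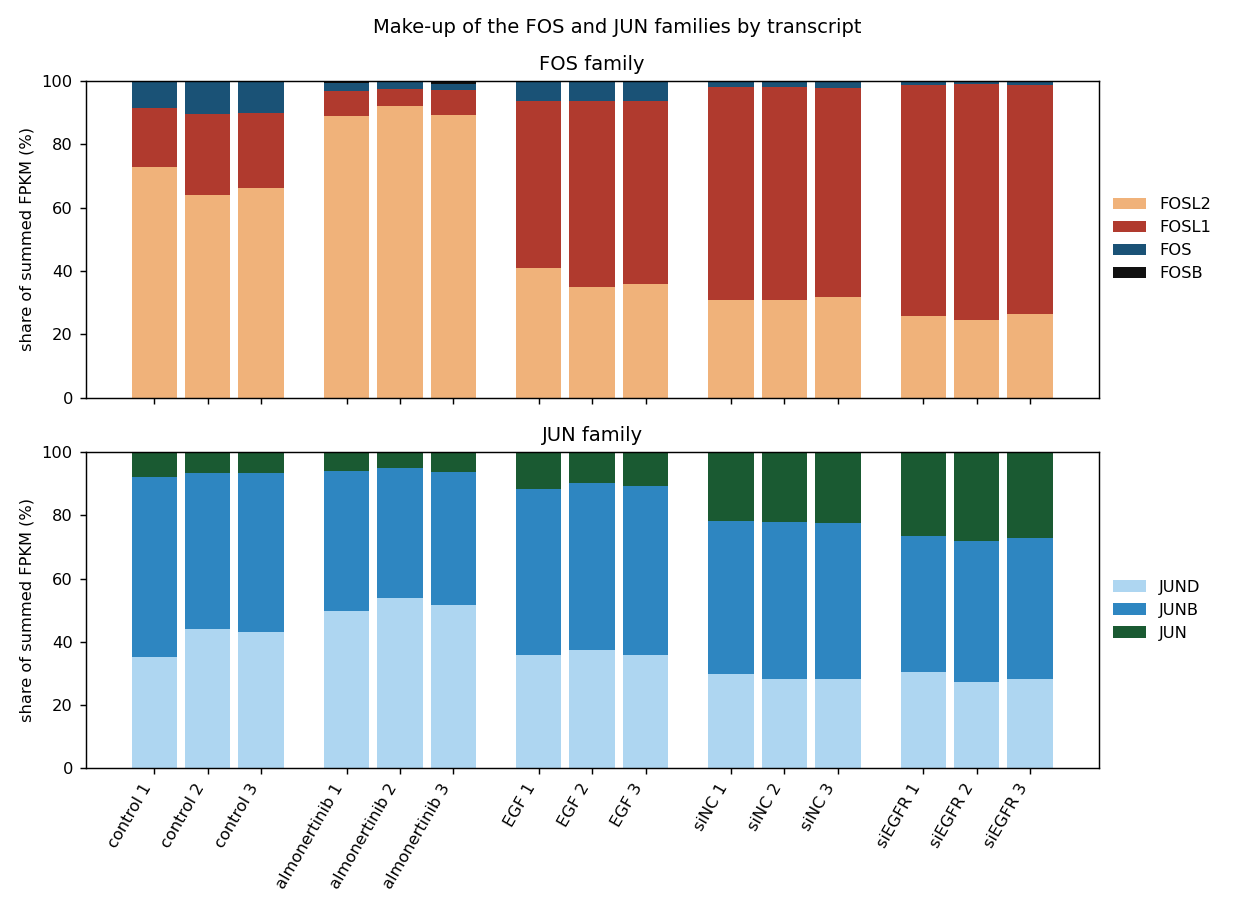
Share of each gene in the summed FPKM of the FOS family (top) and of the JUN family (bottom), in percent, with 1 bar per library. FOSL1 takes 18.7% to 25.8% of the FOS family in control libraries and 72.4% to 74.6% in siEGFR libraries, while JUN takes 6.66% to 8.05% of the JUN family in control and 26.4% to 28.2% in siEGFR.

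JUN (ENSG00000177606), the founding subunit and the one that can induce its own promoter, moved in the order of FOSL1. It was at 10.3, 10.4 and 10.4 FPKM in control, at 8.67, 8.01 and 8.25 FPKM with almonertinib and at 26.1, 23.5 and 25 FPKM with EGF. In siNC it was at 29.6, 30.1 and 30.0 FPKM and in siEGFR at 34.0, 32.5 and 31.9 FPKM. Neighbouring groups did not overlap in the order almonertinib, control, EGF, siNC, siEGFR. JUN fell with almonertinib to 80.1% of control (-0.29 ± 0.05, adjusted p = 0.00085), with an adjusted p of 0.0703 in a fit of these 6 libraries alone. It rose with EGF to 240% (1.19 ± 0.05, adjusted p = 8.72e-10) and in siNC to 288% (1.44 ± 0.05, adjusted p = 4.31e-11).

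After knockdown JUN was at 110% of siNC and did not pass the threshold (0.13 ± 0.05, adjusted p = 0.163), although the libraries did not overlap. In a fit of the 6 siRNA libraries alone its adjusted p was 0.0266. The drug effect minus the knockdown effect on JUN was -0.42 ± 0.07 (adjusted p = 0.00157).

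JUNB (ENSG00000171223), which can restrain JUN and has growth functions of its own, rose with EGF and fell both with almonertinib and after knockdown of EGFR. It was at 72.8, 75.3 and 78.3 FPKM in control, at 62.2, 65.2 and 56.4 FPKM with almonertinib and at 118, 129 and 122 FPKM with EGF. It was at 66.1, 67.3 and 65.3 FPKM in siNC and at 55.6, 51.2 and 52.1 FPKM in siEGFR. Neighbours did not overlap in the order siEGFR, almonertinib, siNC, control, EGF, though the highest almonertinib and the lowest siNC library were almost level. JUNB fell with almonertinib to 81.3% of control (-0.30 ± 0.06, adjusted p = 0.003), where median-ratio scaling gave an adjusted p of 0.106 and a fit of the 6 libraries 0.0908. It rose with EGF to 163% (0.70 ± 0.06, adjusted p = 7.63e-07).

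In siEGFR JUNB fell to 79.9% of siNC (-0.32 ± 0.06, adjusted p = 0.00649), a call lost after median-ratio scaling (adjusted p = 0.0535). The drug effect minus the knockdown effect on JUNB was 0.02 ± 0.08 (adjusted p = 0.885). That difference turned to -0.25 (adjusted p = 0.0588) when GC and length trends were removed, where the drug effect was -0.57. In siNC the level of JUNB was 87.8% of control (-0.18 ± 0.06, adjusted p = 0.0155). That call was lost after TPM scaling (adjusted p = 0.0708) and without control 3 (adjusted p = 0.0626), and the value was 0.02 (adjusted p = 0.767) with GC and length trends removed. The GC content of JUNB is 64.9%, higher than in 96.1% of tested genes. JUNB overlaps HOOK2 on the other strand, with the same limit as for FOSB.

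JUND (ENSG00000130522), a subunit often linked to slow growth, varied between control replicates. It was at 44.9, 67.5 and 66.8 FPKM in control, at 69.6, 85.6 and 69.6 FPKM with almonertinib and at 81.0, 91.3 and 82.8 FPKM with EGF. It was at 40.5, 38.5 and 37.6 FPKM in siNC and at 39.2, 31.4 and 33.0 FPKM in siEGFR. Control 1 was the low library of its group, and almonertinib and EGF libraries overlapped, as did those of siNC and siEGFR. JUND rose with EGF to 142% of control (0.52 ± 0.14, adjusted p = 0.00725), and to 0.33 (adjusted p = 0.0176) on the log2 scale without control 1. With almonertinib it was at 125% of control and did not pass (0.34 ± 0.14, adjusted p = 0.083). The value was 0.15 (adjusted p = 0.34) without control 1, 0.44 (adjusted p = 0.038) without control 2, and 0.02 (adjusted p = 0.864) with GC and length trends removed.

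In siNC JUND fell to 65.1% of control (-0.58 ± 0.14, adjusted p = 0.00249), and to -0.77 (adjusted p = 3.22e-05) without control 1. It did not pass after knockdown (-0.17 ± 0.14, adjusted p = 0.633). The GC content of JUND is 69.7%, higher than in 99.6% of tested genes, whose median is 49.0%, and its part in the spread of JUND between replicates was not tested.

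Within the JUN family, JUNB held 52.1% ± 4.15 of the summed FPKM in control and 52.8% ± 0.367 with EGF, and the ranges overlap. With almonertinib JUND led with 51.8% ± 2.17, against 40.7% ± 4.89 in control (SD, n = 3). The share of JUN was 7.18% ± 0.76 in control, 10.7% ± 0.992 with EGF, 22.1% ± 0.42 in siNC and 27.3% ± 0.933 in siEGFR. The ratio of JUN to JUNB was 0.138 ± 0.00474 in control, 0.136 ± 0.012 with almonertinib and 0.203 ± 0.0198 with EGF. It was 0.451 ± 0.00656 in siNC and 0.62 ± 0.0136 in siEGFR. Control and almonertinib libraries overlapped in this ratio and no other groups did. The summed level was 146 ± 15.2 FPKM in control, 145 ± 12.8 FPKM with almonertinib, 233 ± 9.89 FPKM with EGF, 135 ± 1.79 FPKM in siNC and 120 ± 7.42 FPKM in siEGFR.

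ATF3 (ENSG00000162772), a stress-induced repressor, was low. It was at 0.997, 0.924 and 1.17 FPKM in control, at 1.09, 0.78 and 1.33 FPKM with almonertinib and at 1.56, 1.24 and 1.66 FPKM with EGF. It was at 2.01, 1.51 and 1.91 FPKM in siNC and at 1.68, 2.03 and 1.71 FPKM in siEGFR. Control and almonertinib libraries overlapped, as did siNC and siEGFR libraries. ATF3 rose in siNC to 176% of control (0.47 ± 0.11, adjusted p = 0.00191). With EGF it was at 145% (0.29 ± 0.11, adjusted p = 0.0383), a call lost under 9 of 17 alternatives with adjusted p up to 0.135. Among these were the fits without control 1 (adjusted p = 0.0766), control 2 (adjusted p = 0.106), EGF 1 (adjusted p = 0.0987) and EGF 3 (adjusted p = 0.135). The drug value was 0.02 ± 0.11 (adjusted p = 0.906), and the knockdown value was 0.00 ± 0.11 (adjusted p = 1.0).

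BATF3 (ENSG00000123685), known for its part in dendritic cells and in lymphoma, had 13 to 55 reads per library. It was at 0.646, 0.512 and 0.865 FPKM in control and at 0.458, 0.428 and 0.242 FPKM in siEGFR, and its groups overlapped with their neighbours in order of level. In a fit without the filter on low values its smallest adjusted p over the 4 comparisons was 0.421, for siNC against control (-0.12 ± 0.09).

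**Figure D3:**
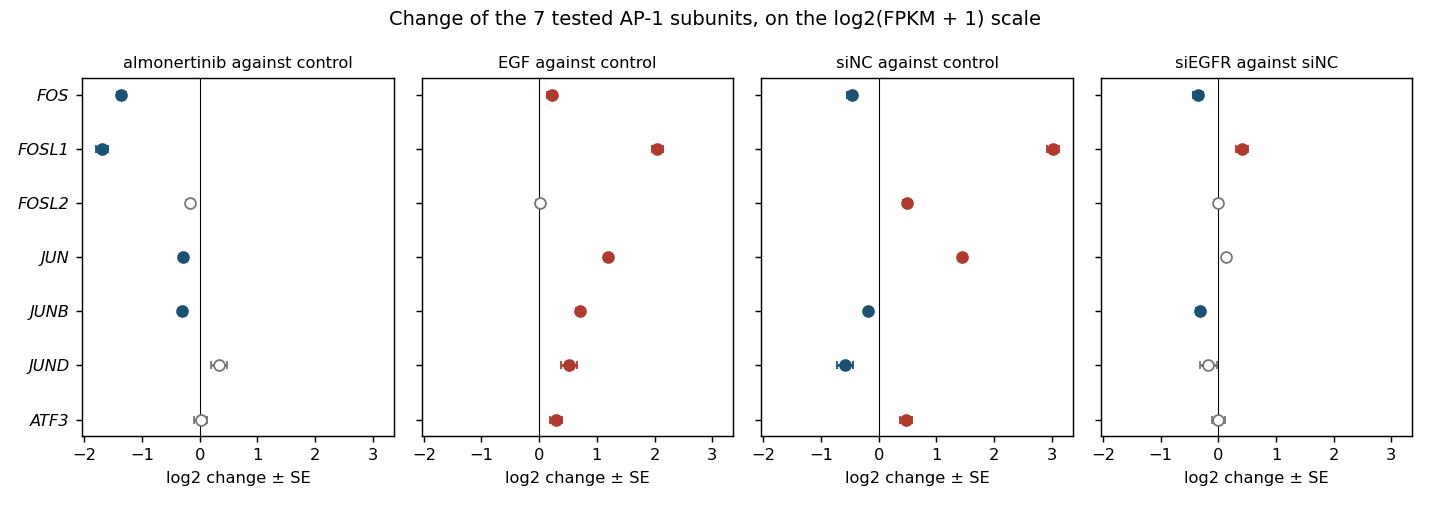
Log2 change ± SE of the 7 tested subunits in 4 comparisons (limma, log2(FPKM + 1) scale); filled points passed an adjusted p of 0.05, red for higher and blue for lower, and open points did not. FOS and FOSL1 lie on the same side with almonertinib and on opposite sides in siNC and in siEGFR.

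Counted together, 4 of the 7 tested subunits fell with almonertinib (FOS, FOSL1, JUN and JUNB) and 0 rose. Over all tested loci 18.0% fell and 12.1% rose with the drug. At an unadjusted p under 0.05, 1 subunit (JUND) was higher with the drug and 5 were lower, in limma and in limma-voom. By adjusted p both methods had 0 higher and 4 lower. With EGF 6 rose and 0 fell, also at an unadjusted p under 0.05 and in limma-voom, and FOSL2 did not pass. Of all loci 22.0% rose and 27.3% fell with EGF. In siNC against control 4 rose and 3 fell, and 34.4% and 31.6% of loci did. After knockdown FOSL1 rose and FOS and JUNB fell, against 2.27% and 3.19% of loci. For the drug effect minus the knockdown effect, 3 differed, all lower (FOS, FOSL1 and JUN), where 7.71% of loci were lower and 5.95% higher. The libraries of the groups compared did not overlap for 6 of the 7 with almonertinib, 6 with EGF, 7 in siNC and 4 after knockdown, and over all loci the shares were 35.2%, 51.1%, 68.8% and 40.5%. The median change over the 7 was -0.29 with almonertinib, 0.52 with EGF, 0.47 in siNC and 0.0 after knockdown, and over all loci it was -0.06, -0.04, 0.03 and 0.01. The 3 comparisons against control share its 3 libraries. The subunits were chosen with earlier results of these data known, so their counts beside those of all loci are a description. In a fit of the control and almonertinib libraries alone 2 subunits fell (FOS and FOSL1), and without control 2 the drug comparison had 6 calls, 5 lower and 1 higher. The share of all calls that were higher with the drug was 40.2%, against 22% with TPM and 53.5% with median-ratio scaling.

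Genes with AP-1 sites in well-studied promoters were taken from a list of 25, of which 23 were tested. This list was chosen with earlier results of these data known. Its counts and medians beside those of all loci, here and in the next paragraph, are therefore a description and no test. With almonertinib 15 fell and SPP1 rose, with a list median of -0.30, against 18.0% and 12.1% of all loci. The cyclin D1 gene CCND1 was at 18.5 ± 1.71 FPKM in control and at 3.37 ± 0.119 FPKM with the drug (-2.15 ± 0.06, adjusted p = 3.16e-10, n = 3). PLAU, the urokinase, fell from 30.1 ± 2.52 to 20.3 ± 0.439 FPKM (-0.54 ± 0.06). In a fit of the 6 libraries alone 7 fell. With EGF 18 rose and TGFB1 and SPP1 fell, with a list median of 0.81, against 22.0% and 27.3% of all loci. The collagenase MMP1 rose by 2.46, and HMGA1, a chromatin architectural protein, from 76.5 ± 7.22 to 238 ± 4.96 FPKM (1.63 ± 0.06).

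In siNC against control 17 of the 23 targets rose and TGFB1, TIMP1 and CD44 fell (list median 0.74), where 34.4% of all loci rose and 31.6% fell. PLAU rose from 30.1 ± 2.52 to 145 ± 4.34 FPKM (2.23 ± 0.06) and CCND1 from 18.5 ± 1.71 to 75.4 ± 0.8 FPKM (1.97 ± 0.06). After knockdown of EGFR 13 fell and 1 rose, with a list median of -0.33, against 3.19% and 2.27% of all loci. PLAU fell from 145 ± 4.34 to 101 ± 3.54 FPKM (-0.51 ± 0.06, adjusted p = 0.000157), TIMP1, which inhibits metalloproteases, from 178 ± 3.26 to 133 ± 6.66 FPKM (-0.42 ± 0.06), and IVL, a cornified envelope protein, from 1.44 ± 0.211 to 0.653 ± 0.0717 FPKM (-0.56 ± 0.07). The number that fell was 8 without siNC 1. The drug effect minus the knockdown effect was lower for 5 targets, CCND1 (-1.78) and HBEGF (-0.58) among them, and higher for SPP1 (1.14), IVL (0.56) and TIMP1 (0.42). IVL is listed at 0 FPKM in control, so a fall with the drug could not have been seen. Its drug value was 0.0, and its 0.56 is the knockdown value of -0.56 with the sign turned. These genes answer to other factors as well, and the part of AP-1 in their levels was not tested.

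**Figure D4:**
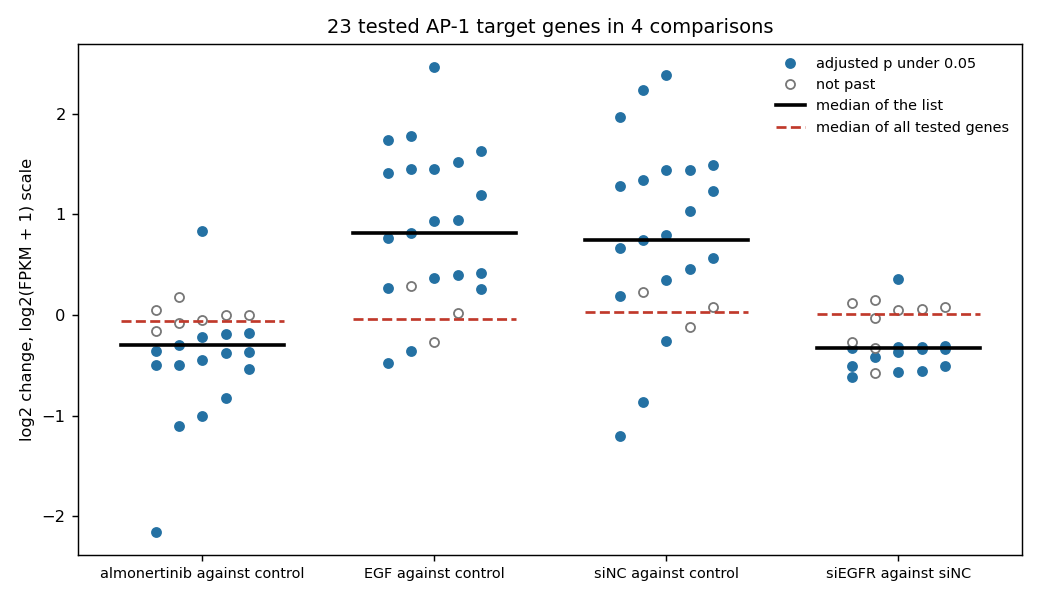
Log2 change of 23 listed AP-1 target genes in 4 comparisons, 1 point per gene, with the list median (black line) and the median of all tested loci (dashed line); sideways spread has no meaning. The list median is -0.30 with almonertinib, 0.81 with EGF, 0.74 in siNC against control and -0.33 in siEGFR against siNC. The list was chosen with earlier results of these data known.

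Other basic leucine zipper genes, of which some can pair with AP-1 subunits, moved in both directions. Of 21 tested, 4 rose and 2 fell with almonertinib, where 12.1% and 18.0% of all loci did. The shares of all loci that rose and fell were 22.0% and 27.3% with EGF and 34.4% and 31.6% in siNC, and counts near these shares are no result about the list. DDIT3, a stress-induced factor, rose with almonertinib from 7.02 ± 0.164 to 12.1 ± 2.19 FPKM (0.69 ± 0.09), ATF4, the regulator of the amino acid response, from 111 ± 3.82 to 149 ± 8.14 FPKM (0.42 ± 0.06) and ATF5 by 0.29. CREB5 fell from 2.91 ± 0.579 to 1.02 ± 0.125 FPKM (-0.94 ± 0.11) and the small MAF protein MAFF from 2.56 ± 0.024 to 1.59 ± 0.0462 FPKM (-0.46 ± 0.06). With EGF 9 rose, led by MAFF (0.86), CEBPG (0.75) and CREM (0.53), and DDIT3 (-0.40), BATF2 (-0.27) and ATF7 (-0.27) fell. In siNC 10 rose, among them CEBPG (1.07), ATF1 (0.48) and JDP2, a repressor that pairs with JUN, from 0.388 ± 0.0211 to 1.18 ± 0.0904 FPKM (0.65 ± 0.08). BATF (-0.71), MAFK (-0.84) and BACH1 (-0.36) fell there. After knockdown 0 of the 21 passed in limma, where 3 had an unadjusted p under 0.05, and 0 passed in limma-voom. Of all loci 2.27% rose and 3.19% fell after knockdown, so a count of 0 is no result about the list. In a fit of the 6 siRNA libraries alone 2 rose and 2 fell. With the drug the calls were 3 higher and 5 lower after TPM scaling, 4 and 4 without control 2, and 5 and 4 without almonertinib 3. They were 2 and 2 without almonertinib 2 and in a fit of the 6 libraries alone, and 2 and 3 with GC and length trends removed. Fewer of the 21 fell with EGF without control 1, control 3 or EGF 2 (1 in each).

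A list of 21 genes upstream of AP-1 holds kinases, serum response factor, its cofactors, MEF2A and MEF2D. Of these 21, 2 rose and 8 fell with almonertinib, where 12.1% and 18.0% of all loci did. MAPK3, which encodes ERK1, rose by 0.44 and MAP2K2 by 0.33, while MRTFB, a serum response factor cofactor, fell from 6.23 ± 0.941 to 3.91 ± 0.474 FPKM (-0.55 ± 0.10) and ELK1 fell by 0.20. Only 1 rose and 4 fell without control 1, 2 and 5 without almonertinib 1, and 0 and 4 without almonertinib 2. In a fit of the 6 libraries alone 0 passed in limma, although 9 had an unadjusted p under 0.05, and limma-voom on all libraries called 2 higher and 8 lower. With EGF 6 rose and 6 fell, where 22.0% and 27.3% of all loci did. MAP2K1, the kinase of ERK, rose from 7.77 ± 0.461 to 16.8 ± 1.61 FPKM (1.02 ± 0.08), ELK3 by 0.57 and the JNK gene MAPK9 by 0.28, and MRTFA (-0.52), MAP2K5 (-0.43) and MRTFB (-0.39) fell. In siNC 8 rose and 6 fell, where 34.4% and 31.6% of all loci did, with MAP2K1 at 1.13, MAPK9 at 0.48, RPS6KA1 at 0.37, MAPK3 at -0.94, MAP2K5 at -0.58 and MAPK7 at -0.33. Of all loci 2.27% rose and 3.19% fell after knockdown, so a count near these shares is no result about the list. MEF2D fell there from 15.6 ± 0.164 to 12.6 ± 1.11 FPKM (-0.30 ± 0.08, adjusted p = 0.0457) and the other 20 did not pass. That call was lost without any 1 of siNC 1, siNC 2, siNC 3, siEGFR 2 and siEGFR 3, and in a fit of the 6 siRNA libraries alone 2 rose and 5 fell.

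The genes whose pattern over the 15 libraries was most like that of a subunit were found among 8255 named genes by Pearson correlation of log2(FPKM + 1). The 15 points share 5 groups, so r mostly reflects group means and is given as a description. FOS was most like EGR1, another immediate early factor, with r = 0.989, then CX3CL1 (r = 0.967) and SHC1 (r = 0.958). FOSL1 was most like PRMT5 (r = 0.995), UHRF1 (r = 0.995) and LMNB2 (r = 0.994), and UHRF1 was at 8.68 FPKM in control, 3.64 with almonertinib, 28.9 with EGF, 50.1 in siNC and 54.5 in siEGFR. JUN was most like TRIP13, GTSE1 and HJURP, each at r = 0.997. FOSL2 was most like SIX4 and PTGFRN (both r = 0.987) and ZNF714 (r = 0.983), and JUNB like TOX2 (r = 0.986), ADAM8 and S100A16 (both r = 0.983). JUND was most like DHRS7 (r = 0.981), WIPI2 (r = 0.974) and EMP3 (r = 0.973), and ATF3 like NDUFAF1 (r = 0.948), RPA2 (r = 0.947) and TRIAP1 (r = 0.944).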

How the data were processed

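Transcripts were measured by mRNA sequencing in 15 libraries of 5 groups. Per the labels' protocols, mRNA was enriched on oligo(dT) beads from TRIzol-extracted RNA and an ABclonal kit was used for the paired-end libraries. The authors deposited 1 table of FPKM values, unrounded, and HISAT2, featureCounts, DESeq2 and hg19 appear, without versions or roles, per the submitters' processing notes. Symbols came from a table of gene names by Ensembl ID (60463 of 60605 IDs matched). Each FPKM is a whole multiple of the value of 1 read, from which read totals were recovered; 99.972% of positive values were whole within 0.01 reads.

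Loci with at least 1 FPKM in at least 3 libraries were kept. A limma 3.58.1 model (R 4.3.3) was fitted to log2(FPKM + 1) (intensity trend, robust moderation, 1 coefficient per group, 10 residual degrees of freedom), two-sided, and both this step and the read recovery were tested on simulated data. Alternatives were a pseudocount of 0.1, no filter, TPM or median-ratio scaling, the compared libraries alone, no trend, the replicate number as a block, a threshold of 0.01, limma-voom on recovered reads and each library left out. Added after seeing the data were the fit without control 1 and almonertinib 3 and the removal of GC and length trends (splines of 4 degrees of freedom, 14402 genes, GENCODE v29). The 4 lists hold AP-1 targets, other basic leucine zipper genes, turnover factors, and upstream kinases with serum response factor, its cofactors, MEF2A and MEF2D. Named are all 9 subunits, EGFR and, from each list, up to 3 genes per direction with the smallest p. Also named are the 3 genes most like each tested subunit, with a mean of at least 5 FPKM in 1 group. Python 3.11.15 with numpy 2.4.6, pandas 2.3.3, scipy 1.17.1 and matplotlib 3.10.9 made the summaries. Some list members that this rule selects are counted but not reported by name here. The subunits and lists were chosen with earlier results of these data known.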

Additional observations from a re-analysis of the deposited data

Results flagged for a closer look

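The almonertinib effect and the siEGFR effect, each against its own control, differed for 3 subunits by the test of the difference itself in limma. FOSL1 was lower in the drug effect by a log2 difference of -2.11 ± 0.15 (adjusted p = 3.61e-06): it fell with the drug and was higher in each of the 3 siEGFR libraries than in any siNC library. FOS differed by -1.01 ± 0.11 (adjusted p = 9.98e-05), and it was lower in both comparisons. JUN differed by -0.42 ± 0.07 (adjusted p = 0.00157), lower with the drug and at 110% of siNC after knockdown. The drug and the knockdown also differ in the cells they are compared with, since FOSL1 was at 6.54 FPKM in control and 59.6 FPKM in siNC, and the part of that starting level was not tested. EGFR itself was at 24.4 FPKM in control, 16.7 FPKM with almonertinib, 49.6 FPKM in siNC and 29.1 FPKM in siEGFR.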

How the results depend on the processing

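Each tested subunit was refitted under 17 alternatives per comparison, and 23 for the difference of effects; of 637 such values 562 kept direction and side of the threshold, 41 lost the call, 5 gained it and 29 changed sign. The drug comparison had 2 calls in a fit of its 6 libraries, and elsewhere 3 to 6. The knockdown comparison had 1 call after median-ratio scaling, 1 at a threshold of 0.01 and 1 to 2 when a library was left out, against 3; the cause was not tested. EGF gave 4 to 6 calls, siNC against control 6 to 7, and the difference of effects 3 throughout.

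Sign changes concerned values that had not passed, except JUNB in siNC against control (0.02 with GC and length trends removed). JUNB in the difference of effects was at -0.07 after TPM scaling, -0.25 with GC and length trends removed and, with 1 library left out, -0.02 to 0.08. ATF3 in the drug comparison was at -0.04 (TPM), -0.08 without control 1 and almonertinib 3, and -0.07 to 0.12 with 1 library left out; in the difference of effects it was at -0.05, -0.08 and -0.07 to 0.12. ATF3 after knockdown was at -0.0087 (median ratio), -0.0054 (voom), -0.007 (GC and length) and -0.08 to 0.05. FOSL2 after knockdown was at 0.0005 (TPM), 0.0039 (GC and length) and -0.03 to 0.03, and with EGF -0.03 to 0.08.

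The replicate block gave 5 drug calls, 6 EGF calls, 7 calls in siNC and 2 after knockdown, where FOSL1 had an adjusted p of 0.0518, and 3 for the difference. Of 30 pairs of libraries with the same number in 2 groups, 10 had a correlation of deviations over 0.1 (range -0.17 to 0.60), so the numbers were not taken as pairs. TPM scaling moved the median of all genes in the difference of effects from -0.07 to -0.18. Depth limits FOSB, BATF3 and, with almonertinib, FOS.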

Other observations

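Genes that control the turnover of AP-1 messages and proteins, from a list of 10 with 9 tested, had 5 calls in siNC against control, where 34.4% of all loci rose and 31.6% fell, so that this count is no result about the list. KHSRP, which promotes decay of AU-rich messages, rose from 44.0 ± 0.732 FPKM in control to 73.5 ± 1.07 FPKM in siNC (0.73 ± 0.04), HNRNPD from 22.8 ± 1.07 to 43.0 ± 1.96 FPKM (0.89 ± 0.06) and ELAVL1, which stabilises such messages, from 11.6 ± 0.267 to 18.5 ± 0.284 FPKM (0.63 ± 0.05), each with n = 3. ZFP36, a decay factor induced with early genes, fell from 4.64 ± 0.441 to 2.67 ± 0.0676 FPKM (-0.62 ± 0.08). In all 4 rose and 1 fell there. With EGF 3 rose and ZFP36L1 (-0.40) fell, where 22.0% of all loci rose and 27.3% fell. With almonertinib 5 fell, among them ITCH (-0.48), HNRNPD (-0.23) and ELAVL1 (-0.20), and 0 rose. Of all loci 18.0% fell and 12.1% rose with the drug. In a fit of the 6 libraries alone 0 passed in limma, where 4 had an unadjusted p under 0.05, against 4 called by limma-voom on all libraries, and 3 fell without control 1, control 3 or almonertinib 2. After median-ratio scaling 1 fell, and the list median was -0.04 against -0.13. After knockdown 0 of 9 passed in limma, with 2 at an unadjusted p under 0.05 and 1 called by limma-voom. Of all loci 2.27% rose and 3.19% fell after knockdown, so this count is no result about the list.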
